A study of Mus musculus with 112 samples.

Results

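The genes described here make, coat or break down the triglyceride held in lipid droplets, and they were measured in hearts of calorie-restricted (CR) and control mice. There were 10 of them among 19938 genes on the array, chosen by function with earlier results of these data known. They include the lipases Pnpla2, Lipe and Mgll, the lipase co-activator Abhd5 and the droplet coat proteins Plin2, Plin4 and Plin5. They also include the acyltransferases Gpam, Dgat1 and Dgat2. Each was read from the brightest probe set that carried only its symbol, and each of the 10 had exactly 1 such probe set. In RefSeq's GRCm38.p6 annotation the genes of breakdown and coating are Pnpla2 at chr7:141455188-141460743, Lipe at chr7:25379527-25398486, Mgll at chr6:88724412-88828360, Abhd5 at chr9:122351616-122381524, Plin2 at chr4:86626910-86670217, Plin4 at chr17:56100587-56109948, Plin5 at chr17:56111597-56117606. The genes of synthesis are Gpam at chr19:55067635-55127319, Dgat1 at chr15:76502012-76512021, Dgat2 at chr7:99153663-99182713. Adipoq, which encodes the adipocyte hormone adiponectin, was read beside them because fat attached to a heart expresses many of the same genes.

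The mice were males of 7 strains, namely 129S1/SvImJ, B6C3F1/J (a cross of C57BL/6J with C3H/HeJ), BALB/cJ, CBA/J, C57BL/6J, DBA/2J and C3H/HeJ. In each strain 8 mice ate the CR diet and 8 the control diet, and every array held the RNA of 1 mouse. The labels spell C57BL/6J and BALB/cJ as C57BL6/J and Balbc/J. No allele or drug was introduced in any group. The mice arrived at 6 weeks of age, were housed singly and ate 84 kcal per week of a purified diet, and the diets differed from 8 weeks of age for 14 weeks, up to 22 weeks of age, when the mice were fasted overnight and the hearts taken. Food of the 129S1/SvImJ and C57BL/6J CR mice was lowered further partway through, and both diet groups of BALB/cJ received larger rations, so strain and feeding schedule cannot be told apart.

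The heart draws most of its energy from fatty acids, and cardiomyocytes keep part of them as triglyceride in lipid droplets. Gpam is one of the enzymes that open triglyceride synthesis by adding a fatty acid to glycerol phosphate, and Dgat1 and Dgat2 close it. Breakdown runs in order through adipose triglyceride lipase (Pnpla2, switched on by Abhd5), hormone-sensitive lipase (Lipe) and monoglyceride lipase (Mgll), while perilipins on the droplet surface regulate how far lipases reach the fat. Several of these genes are known targets of the PPAR nuclear receptors, which sense fatty acids.

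Of 112 arrays, DBA/2J CR replicate 7 correlated at 0.262 with the rest of its group and was left out of all results below unless stated, which left 55 CR and 56 control hearts. A further 7 arrays stood apart from their groups by Dixon's test, the lowest being CBA/J control replicate 1 at a correlation of 0.894. The mean log2 signal of 6 cardiomyocyte markers lay between 12.2 and 12.8 in all 14 groups. Across strains, 1 of these 6 (Actc1, log2 difference 0.12) and 1 of 4 ventricular markers (Hey2, 0.13) were higher in CR hearts at an adjusted p of 0.05 (limma). In whole-heart RNA, fewer cells of a type and less RNA per cell cannot be told apart. Across strains 4 of 5 endothelial markers were lower in CR hearts (log2 differences of -0.26 for Cdh5, -0.20 for Tie1, -0.17 for Cldn5 and -0.13 for Pecam1) and 2 of 4 macrophage markers were higher (0.28 for Cd68 and 0.18 for C1qa). Of the 6 measured white adipocyte, 5 brown adipocyte and 5 atrial markers, limma called 0 at an adjusted p of 0.05 and 2 at an unadjusted p under 0.05. The part of the muscle, endothelial and macrophage marker differences in the results below was not tested.

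Most of the triglyceride genes differed between CR and control hearts, and not all in the same direction. Averaged over the 7 strains, Gpam, the lipases Pnpla2, Lipe and Mgll, and the coat proteins Plin2 and Plin5 were lower in CR hearts, whereas the co-activator Abhd5 and the acyltransferase Dgat2 were higher. In all, 8 of the 10 genes passed limma's test at an adjusted p of 0.05 (6 lower and 2 higher), against 12.0% of all genes called in either direction, 4.34% lower and 7.69% higher. Because the 10 were chosen with earlier results of these data known, this count is a description and not an independent test. The median difference of the 10 genes was -0.20 on the log2 scale, beside -0.0026 over all genes.

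**Figure D1:**
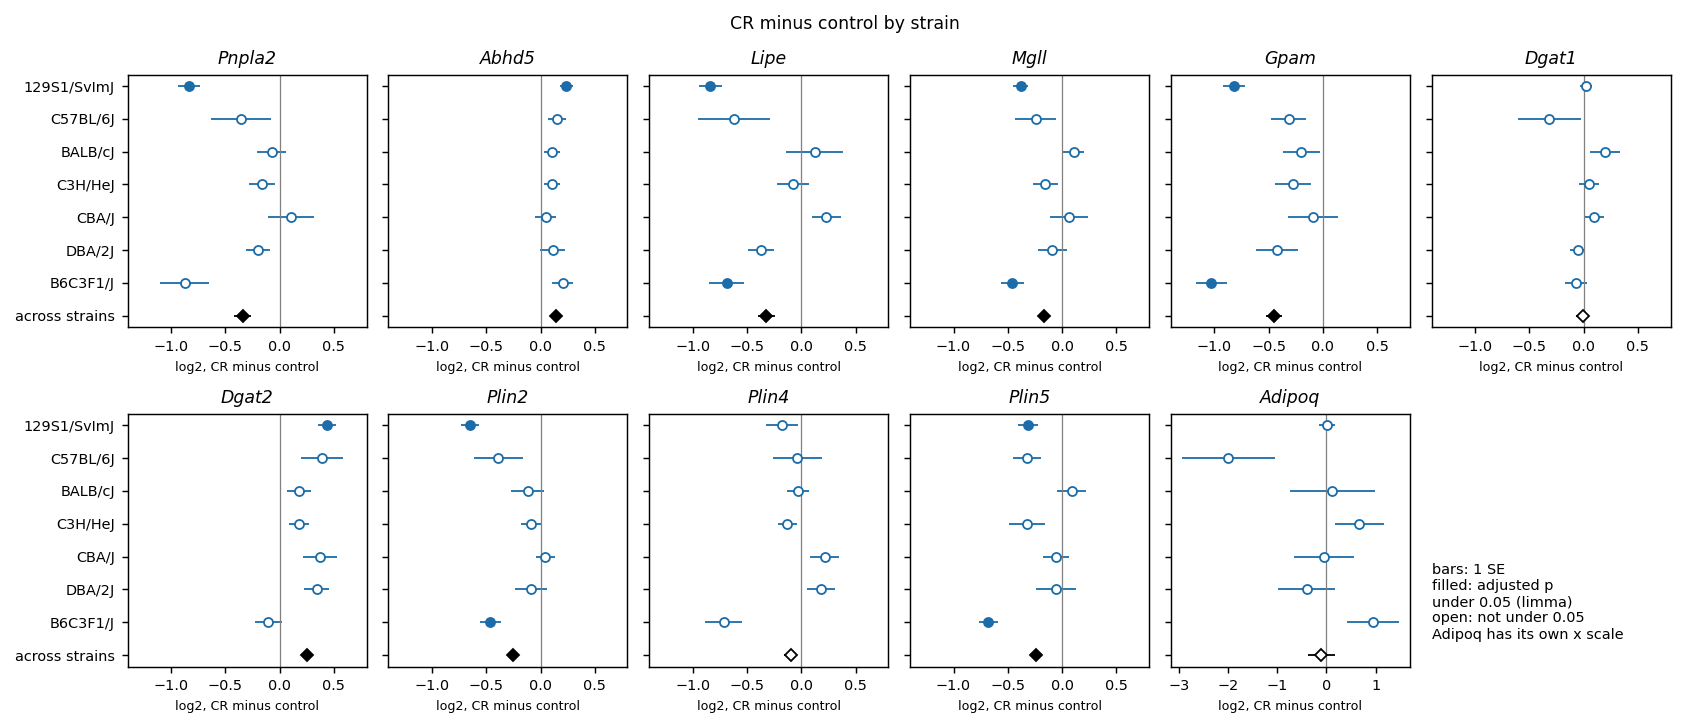
Log2 difference in signal, CR minus control, for each triglyceride gene in each strain and across strains, with bars of 1 standard error. Filled points passed limma's test at an adjusted p of 0.05. Gpam lies below zero in all 7 strains and Abhd5 above zero in all 7.

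Among the genes of synthesis, Gpam had the smallest p of the 10. Its mean log2 signal was 9.24 in CR hearts and 9.69 in control hearts, a difference of -0.45 ± 0.0697 (SE; limma, adjusted p = 4.95e-07), or 0.732 times the control level, and it was lower in 7 of 7 strains. Dgat2, one of the enzymes of the final step, averaged 10.62 in CR hearts and 10.37 in control hearts, a difference of 0.26 ± 0.0525 (adjusted p = 0.00018), and was higher in 6 of 7 strains. Dgat1, which catalyses the same step, differed by -0.01 ± 0.0566 (adjusted p = 0.934, 95% interval -0.12 to 0.10).

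Among the genes of breakdown, Pnpla2 averaged 9.60 in CR hearts and 9.94 in control hearts, a difference of -0.34 ± 0.0749 (adjusted p = 0.00048), lower in 6 of 7 strains. Lipe differed by -0.32 ± 0.0823 (adjusted p = 0.00359) and Mgll by -0.17 ± 0.0530 (adjusted p = 0.0248), each lower in 5 of 7 strains. Abhd5, the partner that activates Pnpla2, went the other way, with a mean of 8.32 in CR hearts and 8.19 in control hearts (0.14 ± 0.0315, adjusted p = 0.000843). It was higher in 7 of 7 strains, although in CBA/J the sign turned to -0.01 without control replicate 1, the array that stood apart.

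Of the coat proteins, Plin2 differed by -0.25 ± 0.0543 (adjusted p = 0.000434) and Plin5, the perilipin of oxidative tissues, by -0.24 ± 0.0530 (adjusted p = 0.000672), each lower in 6 of 7 strains. Plin4 differed by -0.10 ± 0.0603 and did not pass the test (adjusted p = 0.311). Plin4 and Plin5 are neighbours on chromosome 17, 1648 bases apart, and were read by separate probe sets.

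Adipoq averaged 4.76 in CR hearts and 4.86 in control hearts across strains, and did not pass the test (adjusted p = 0.863, 95% interval of the difference -0.65 to 0.44). Both means lay under 5.21, the cut-off for dim genes used here (the 40th percentile of mean signal), so Adipoq was near the floor in many hearts. With the Adipoq signal of each heart as a covariate, all 8 genes stayed past the threshold: Gpam had a difference of -0.47 (adjusted p = 1.2e-10), Pnpla2 of -0.34 (adjusted p = 0.00037) and Lipe of -0.30 (adjusted p = 0.000133). The same 8 were called with the white adipocyte markers, the atrial markers or both as covariates.

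**Figure D2:**
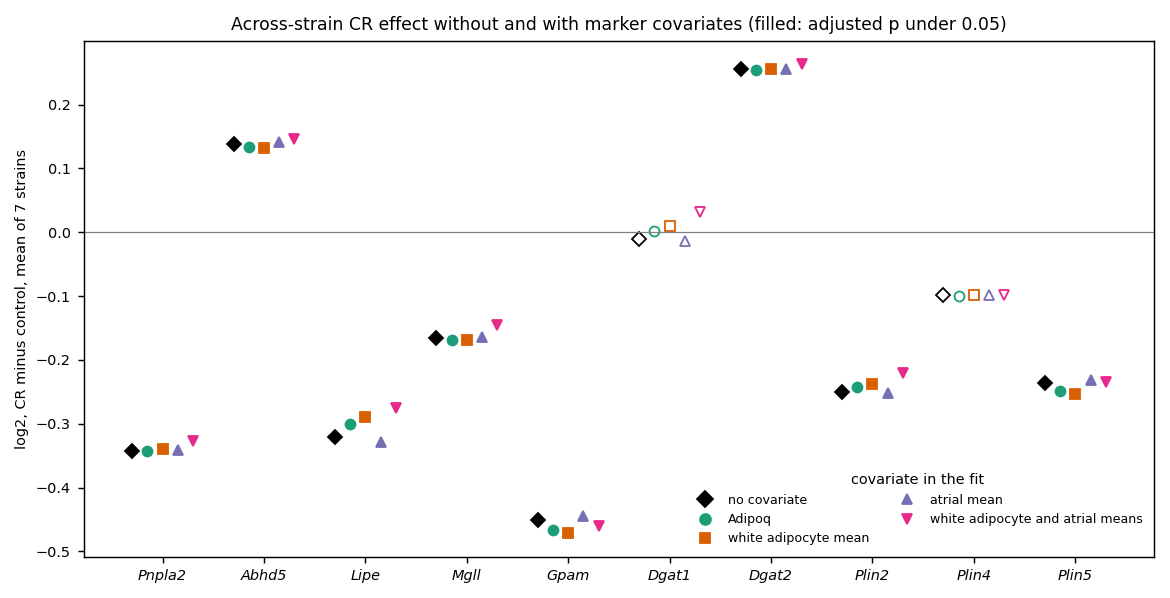
Across-strain log2 difference, CR minus control, of each triglyceride gene (no error bars are drawn, and filled symbols have an adjusted p under 0.05) in the plain comparison and with Adipoq, white adipocyte markers, atrial markers or both marker means as covariates. The values of Gpam lie between -0.47 and -0.44 in all of them.

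The differences rested partly on 129S1/SvImJ and B6C3F1/J. Without 129S1/SvImJ, Lipe (adjusted p = 0.130), Mgll (0.220) and Plin2 (0.0577) no longer passed, and without B6C3F1/J, Lipe (0.0557), Mgll (0.230) and Plin5 (0.0717) did not. With the excluded array kept in, Mgll (0.0760), Abhd5 (0.339) and Dgat2 (0.270) did not pass. Pnpla2 and Gpam passed in all 29 settings that were run.

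For the genes that moved, the sequence around the start of transcription is given where a window held a searched motif. The windows hold 300 bases around a start site in RefSeq's mouse annotation (GRCm38.p6), a C57BL/6J reference, read 5′ to 3′ on the gene's strand, and 8 of the 10 genes matched, with 12 windows between them, while Dgat1 and Dgat2 were not matched. Capitals mark the hexamer AGGTCA, bound by nuclear receptors, or the E-box CACGTG, on either strand. Plin5 has 2 such windows, which overlap at their ends. The Gpam window printed lies inside the coordinates of the gene given above. Another Gpam window (chr19:55127189-55127488), at the start of those coordinates on the minus strand, held no searched motif and is not printed. The window of Pnpla2 and a further window each of Lipe and Mgll held none either.
Gpam (chr19:55099428-55099727, minus strand): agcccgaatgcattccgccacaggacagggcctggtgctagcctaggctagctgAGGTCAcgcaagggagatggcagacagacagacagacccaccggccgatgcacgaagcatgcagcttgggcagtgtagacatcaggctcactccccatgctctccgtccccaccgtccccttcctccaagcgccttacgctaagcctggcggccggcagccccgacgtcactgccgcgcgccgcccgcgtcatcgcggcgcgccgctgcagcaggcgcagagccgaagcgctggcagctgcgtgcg
Plin5 (chr17:56117499-56117798, minus strand): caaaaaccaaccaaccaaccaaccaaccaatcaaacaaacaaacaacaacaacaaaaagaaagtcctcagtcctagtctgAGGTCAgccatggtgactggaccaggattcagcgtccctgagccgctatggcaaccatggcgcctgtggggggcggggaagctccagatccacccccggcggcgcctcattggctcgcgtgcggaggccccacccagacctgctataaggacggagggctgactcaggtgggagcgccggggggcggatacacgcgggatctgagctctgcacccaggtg
Plin5 (chr17:56117249-56117548, minus strand): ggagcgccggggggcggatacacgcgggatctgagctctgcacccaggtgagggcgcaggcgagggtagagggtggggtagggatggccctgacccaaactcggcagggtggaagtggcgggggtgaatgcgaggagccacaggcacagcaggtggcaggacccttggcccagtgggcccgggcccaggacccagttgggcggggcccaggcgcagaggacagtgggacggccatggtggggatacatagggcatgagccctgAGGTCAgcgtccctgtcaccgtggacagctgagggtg
Plin2 (chr4:86670010-86670309, minus strand): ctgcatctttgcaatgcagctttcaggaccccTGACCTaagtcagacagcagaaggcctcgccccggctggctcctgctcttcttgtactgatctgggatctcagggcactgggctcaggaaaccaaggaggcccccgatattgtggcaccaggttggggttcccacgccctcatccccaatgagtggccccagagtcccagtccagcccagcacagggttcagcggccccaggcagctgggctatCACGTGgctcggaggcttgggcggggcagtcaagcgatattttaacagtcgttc
Abhd5 (chr9:122351366-122351665, plus strand): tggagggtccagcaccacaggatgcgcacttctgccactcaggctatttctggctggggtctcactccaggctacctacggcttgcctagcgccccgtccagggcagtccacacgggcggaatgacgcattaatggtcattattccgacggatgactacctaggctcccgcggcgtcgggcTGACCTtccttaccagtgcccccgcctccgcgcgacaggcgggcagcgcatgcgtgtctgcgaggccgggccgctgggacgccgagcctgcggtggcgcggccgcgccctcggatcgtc
Lipe (chr7:25395938-25396237, minus strand): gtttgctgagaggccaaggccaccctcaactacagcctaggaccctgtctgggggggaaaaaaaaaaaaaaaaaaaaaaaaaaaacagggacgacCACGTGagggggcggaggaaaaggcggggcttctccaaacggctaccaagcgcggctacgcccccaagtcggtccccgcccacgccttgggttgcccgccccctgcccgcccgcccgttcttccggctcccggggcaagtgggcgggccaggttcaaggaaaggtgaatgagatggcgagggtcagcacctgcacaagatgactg
Mgll (chr6:88724162-88724461, plus strand): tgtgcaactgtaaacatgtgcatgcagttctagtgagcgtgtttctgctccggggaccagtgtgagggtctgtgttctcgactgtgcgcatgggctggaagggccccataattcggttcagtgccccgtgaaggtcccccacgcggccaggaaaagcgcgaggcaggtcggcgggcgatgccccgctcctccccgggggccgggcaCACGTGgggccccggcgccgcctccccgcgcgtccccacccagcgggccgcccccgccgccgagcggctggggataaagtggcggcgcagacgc

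Both strands of all 32851 windows were searched for 3 motifs. AGGTCA was in 16.3% of all windows and in windows of Abhd5, Gpam, Plin2 and Plin5 (5 of the 12 windows), and CACGTG was in 7.15% of all windows and in 1 window each of Lipe, Mgll and Plin2. The longer PPAR element AGGTCANAGGTCA, which contains AGGTCA, was in 0.0396% of all windows and in none of the 12. These matches describe the letters of the windows only.

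In 129S1/SvImJ hearts, the 3 lipases, Gpam, Plin2 and Plin5 were lower with CR, while Dgat2 and Abhd5 were higher. Of the 10 genes, 8 passed the test in this strain, more than in any other (6 lower and 2 higher, against 2.94% of all genes lower and 3.88% higher), and the same number had an unadjusted p under 0.05 (20.7% of all genes). For 5 genes all CR hearts lay below all control hearts (0.903% of all genes) and for 1 all CR hearts lay above (0.928%). Adipoq was 3.48 to 4.52 in CR hearts and 3.61 to 4.74 in control hearts, with a difference of 0.00 ± 0.164, and the atrial mean was 6.50 to 6.75 in CR hearts and 6.40 to 6.66 in control hearts. The endothelial mean was lower in CR hearts and its ranges did not overlap (8.18 to 8.45 in CR hearts and 8.56 to 8.94 in control hearts), and its part in the values below was not tested.

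**Figure D3:**
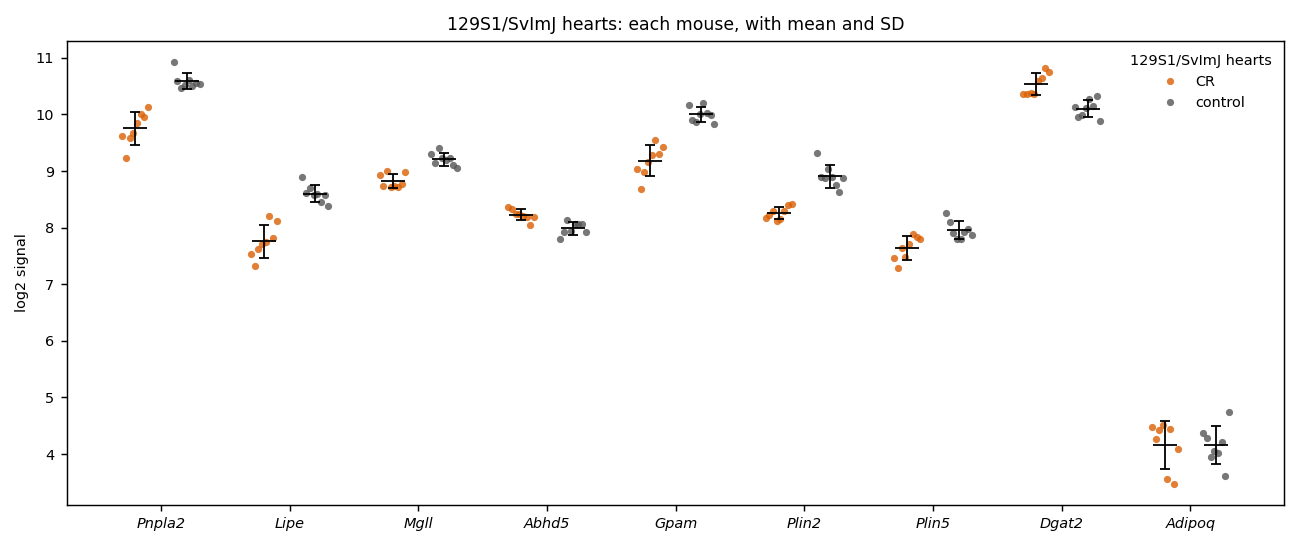
Log2 signal of each 129S1/SvImJ heart for the 8 triglyceride genes called in this strain and for Adipoq, CR to the left of control, with the mean and SD of 8 mice. CR hearts lie below all control hearts for Pnpla2, Lipe, Mgll, Plin2 and Gpam and above them for Dgat2.

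In 129S1/SvImJ, Pnpla2 had a lowest, median and highest log2 signal of 9.24, 9.76 and 10.12 in CR hearts and 10.47, 10.54 and 10.93 in control hearts. The groups did not overlap, and the difference was -0.84 ± 0.104 (limma, adjusted p = 4.71e-05). Lipe was 7.33, 7.72 and 8.20 in CR hearts and 8.38, 8.59 and 8.89 in control hearts, a difference of -0.84 ± 0.106 (adjusted p = 5.52e-05), again without overlap. Gpam was 8.69, 9.22 and 9.56 in CR hearts and 9.83, 10.004 and 10.21 in control hearts (-0.82 ± 0.101, adjusted p = 4.00e-05). For each of these 3 genes the highest CR heart lay below the lowest control heart.

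Plin2 was 8.11, 8.26 and 8.42 in CR hearts and 8.63, 8.88 and 9.31 in control hearts (-0.65 ± 0.0809, adjusted p = 4.71e-05). Mgll was 8.72, 8.76 and 8.99 in CR hearts and 9.05, 9.21 and 9.40 in control hearts (-0.38 ± 0.0661, adjusted p = 0.0011). The ranges did not overlap for either gene. Plin5 was 7.29 to 7.88 in CR hearts and 7.79 to 8.26 in control hearts, which overlap, with a difference of -0.31 ± 0.0892 (adjusted p = 0.0377).

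Dgat2 was 10.36, 10.49 and 10.83 in CR hearts and 9.89, 10.12 and 10.32 in control hearts, so all CR hearts were above all control hearts (0.43 ± 0.0845, adjusted p = 0.00306). Abhd5 was 8.05 to 8.37 in CR hearts and 7.80 to 8.13 in control hearts, which overlap (0.24 ± 0.0617, adjusted p = 0.0226). Plin4 (-0.18, adjusted p = 0.529) and Dgat1 (0.02, adjusted p = 0.883) did not pass. With the atrial mean as a covariate, Abhd5 (adjusted p = 0.108) and Plin5 (0.190) did not pass, and with all 14 groups sharing 1 estimate of the spread, neither these (0.130 and 0.323) nor Mgll (0.161) and Dgat2 (0.0760) did.

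In B6C3F1/J hearts the acyltransferase Gpam, the coat proteins Plin5 and Plin2 and the lipases Mgll and Lipe were lower with CR. These were 5 of the 10 genes, against 0.697% of all genes, and limma called 0 of the 10 higher, against 0.211%, while 8 of the 10 had an unadjusted p under 0.05 in either direction (21.5% of all genes). The ranges of 3 genes did not overlap, with CR below (0.256% of all genes), and 0 with CR above (0.0702%). The marker levels spread more here. The atrial mean was 9.02 ± 2.05 in CR hearts and 7.53 ± 2.15 in control hearts (SD, n = 8 each), and Adipoq averaged 5.15 in CR hearts and 4.21 in control hearts (adjusted p = 0.296). The endothelial mean was 7.17 to 8.46 in CR hearts and 8.01 to 8.91 in control hearts. The cardiomyocyte mean was 12.35 ± 0.249 in CR hearts and 12.64 ± 0.210 in control hearts, and the macrophage mean was 7.34 ± 0.290 in CR hearts and 7.00 ± 0.303 in control hearts. The part of these marker differences in the values below was not tested.

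Gpam was 8.65, 9.02 and 9.39 in CR hearts and 9.45, 10.10 and 10.43 in control hearts, without overlap (-1.03 ± 0.142, adjusted p = 0.000962), and it was -0.90 with Adipoq as a covariate. Plin5 was 7.20, 7.55 and 7.73 in CR hearts and 7.92, 8.25 and 8.41 in control hearts, without overlap (-0.68 ± 0.0913, adjusted p = 0.000761). Plin2 differed by -0.46 ± 0.0975 (adjusted p = 0.0298), and its ranges overlapped (8.01 to 8.64 in CR hearts and 8.62 to 9.18 in control hearts).

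Mgll was 8.05 to 8.93 in CR hearts and 8.93 to 9.30 in control hearts (-0.46 ± 0.108, adjusted p = 0.0494), with no overlap before rounding, and did not pass with Adipoq as a covariate (adjusted p = 0.117). Lipe differed by -0.69 ± 0.161 (adjusted p = 0.0494), and without CR replicate 2, which stood apart, it did not pass (-0.60, adjusted p = 0.0752). Pnpla2 (-0.87 ± 0.225, adjusted p = 0.0647) and Plin4 (-0.72 ± 0.169, adjusted p = 0.05003) were just outside the threshold, and both passed with all 14 groups sharing 1 estimate of the spread (0.00213 for Pnpla2 and 0.00168 for Plin4) and without the dimmest genes (0.0425 for Pnpla2 and 0.0317 for Plin4). Plin4 also passed with arrays centred on their median (0.0471) and with a trended variance (0.0432). With the atrial mean as a covariate, Mgll (0.107) and Plin2 (0.0516) did not pass. Dgat2 differed by -0.10 (adjusted p = 0.653), and Abhd5 by 0.20 (adjusted p = 0.222).

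In the other 5 strains limma called 0 of the 10 genes at an adjusted p of 0.05, where 0.251% of all genes were called in C57BL/6J, 0.0552% in C3H/HeJ, 0.0150% in CBA/J, 0.01% in DBA/2J and 0 in BALB/cJ. At an unadjusted p under 0.05 there were 3 in DBA/2J (Lipe -0.38, Gpam -0.42 and Dgat2 0.34, against 5.11% of all genes), 1 in C57BL/6J (Plin5 -0.32, 12.6%), 1 in CBA/J (Dgat2 0.37, 6.77%) and none in BALB/cJ (6.52%) or C3H/HeJ (7.34%), and the methods' t-test at an unadjusted p of 0.01 called 0 in each of these 5 strains (4.07% of all genes in C57BL/6J, 2.18% in C3H/HeJ, 1.91% in CBA/J, 1.77% in BALB/cJ and 1.40% in DBA/2J).

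Gpam, lower on average in every strain, overlapped between the diets in these 5 strains. Its lowest, median and highest signals in DBA/2J were 8.69, 9.26 and 9.62 in CR hearts and 8.90, 9.77 and 10.30 in control hearts. In C57BL/6J they were 8.64, 9.28 and 9.54 in CR hearts and 9.13, 9.34 and 9.95 in control hearts, and in C3H/HeJ 9.21, 9.63 and 9.98 in CR hearts and 8.87, 9.99 and 10.50 in control hearts. The CR median was the lower in each. BALB/cJ had 8.83, 9.12 and 9.69 in CR hearts and 8.91, 9.43 and 9.93 in control hearts, and CBA/J had 9.07, 9.21 and 9.67 in CR hearts and 7.68, 9.63 and 9.75 in control hearts. Dgat2, the acyltransferase that was higher across strains, also overlapped in all 5, with 10.41, 10.84 and 11.08 in CR hearts and 9.97, 10.50 and 10.60 in control hearts of DBA/2J. In CBA/J its CR hearts lay between 10.66 and 10.82 and its control hearts between 9.33 and 10.77. The lowest of these control hearts was replicate 1, the array that stood apart, and the next lowest was replicate 2 at 10.07.

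**Figure D4:**
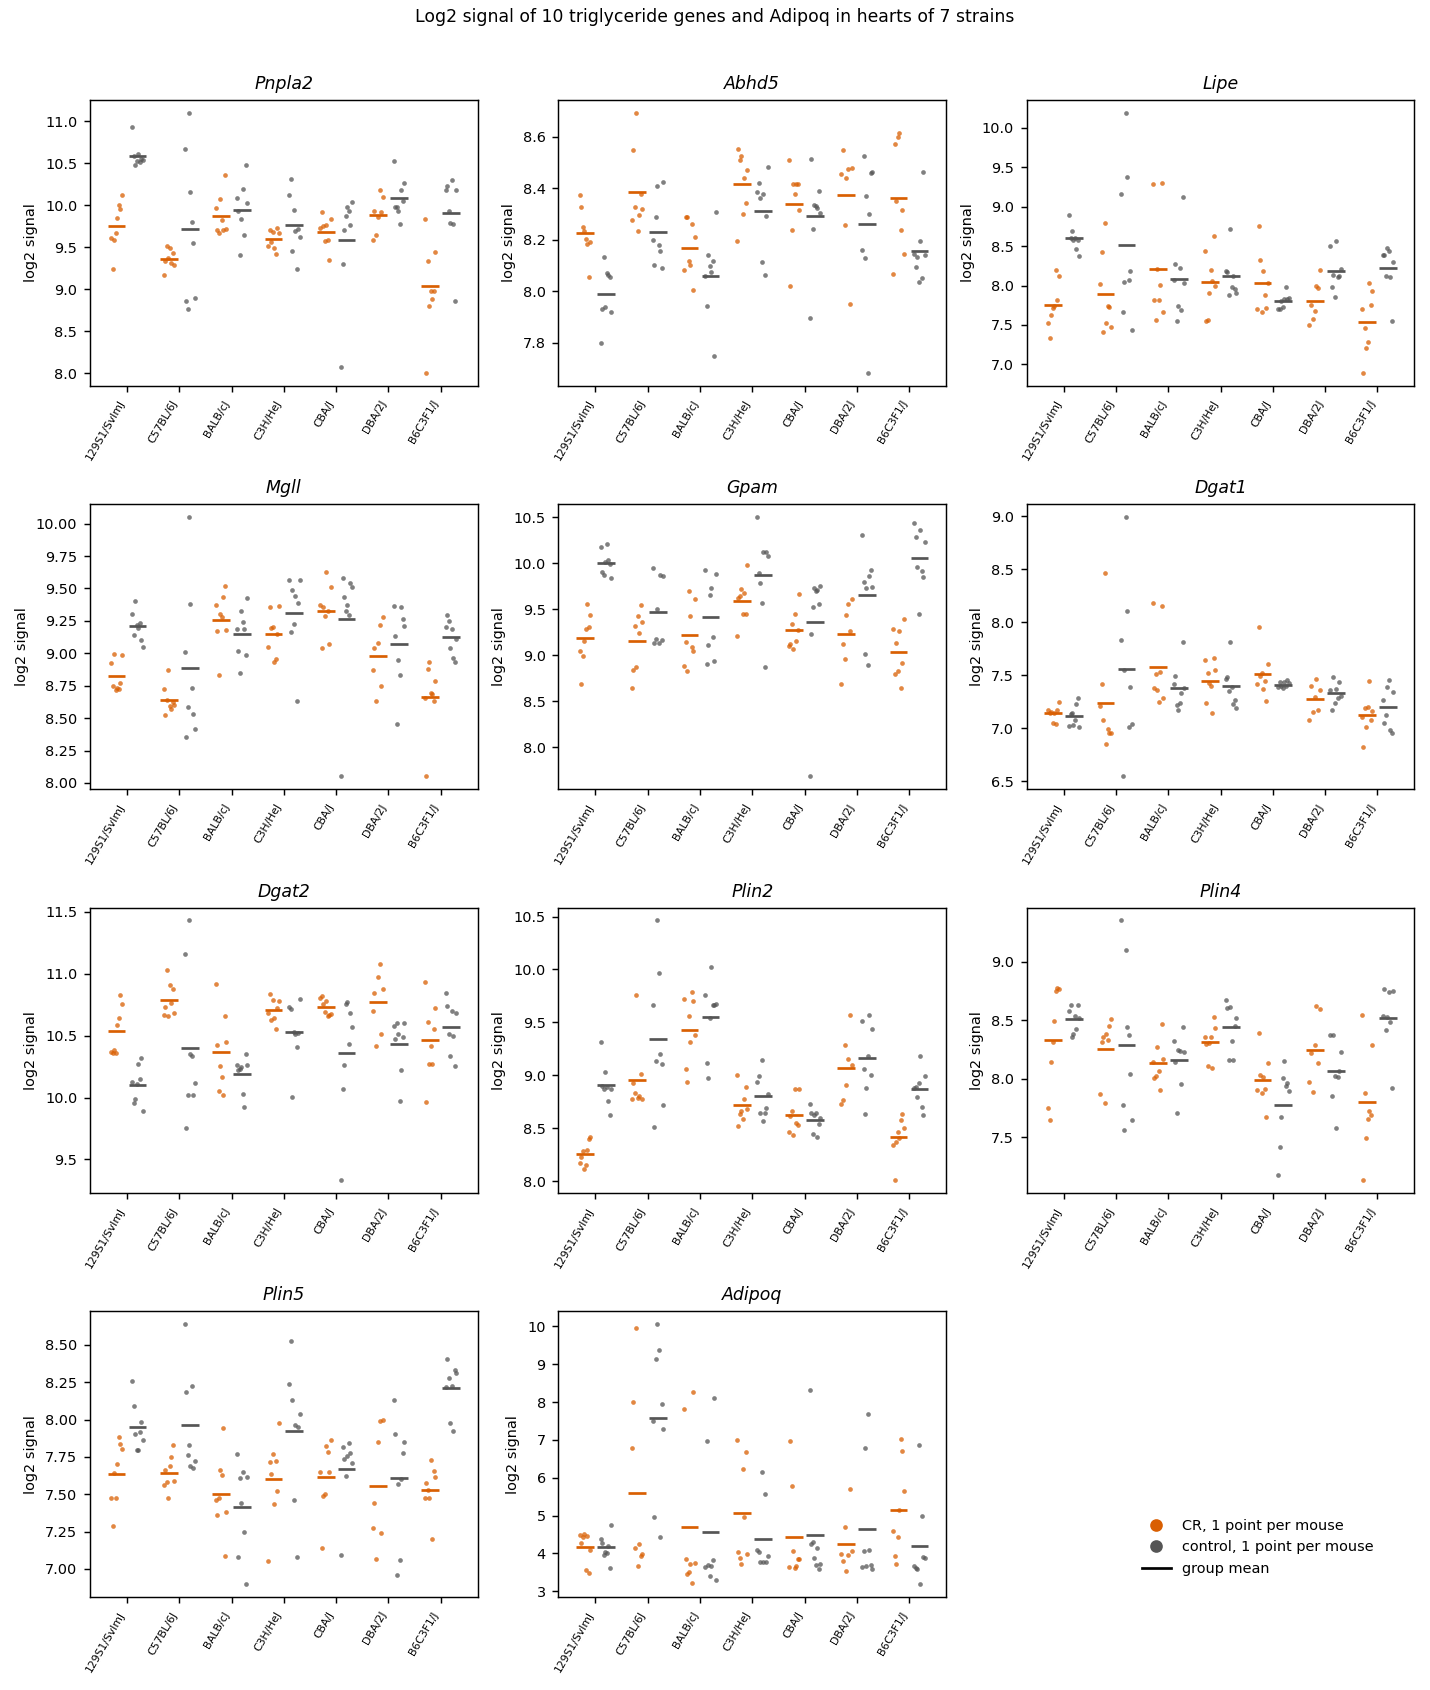
Log2 signal of the 10 triglyceride genes and Adipoq in every heart by strain, CR to the left of control. Adipoq spreads widely in C57BL/6J, where it reaches 9.96 in a CR heart and 10.05 in a control heart.

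Adipoq had its largest SD in C57BL/6J, at 2.37 in CR hearts and 2.03 in control hearts. Its lowest, median and highest signals were 3.67, 4.19 and 9.96 in CR hearts and 4.43, 7.72 and 10.05 in control hearts, and the atrial mean was 7.76 in CR hearts and 10.25 in control hearts. Lipe differed by -0.62 (adjusted p = 0.459) and by -0.13 with Adipoq as a covariate, Gpam by -0.32 and -0.50, and Dgat1 by -0.32 and 0.18. The control heart with the highest Adipoq of all arrays used, replicate 4, also had the highest Pnpla2, Lipe, Mgll, Plin2, Dgat1 and Dgat2. In CBA/J, the difference of Pnpla2 was -0.11 without control replicate 1 and 0.11 with it, that of Mgll was -0.11 without and 0.06 with it, and that of Gpam was -0.33 (adjusted p = 0.185) without and -0.09 with it. None of the 10 genes passed in any of these 5 strains when an array that stood apart was left out.

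Whether the response differed between strains was tested by the strain by diet interaction. None of the 10 genes passed at an adjusted p of 0.05 (limma, adjusted p 0.112 to 0.871, against 0.712% of all genes), while 7 of 10 had an unadjusted p under 0.05 (14.7% of all genes). The smallest adjusted p-values were those of Plin4 (0.112), Lipe (0.114), Pnpla2 (0.124) and Gpam (0.133). With Adipoq as a covariate, Lipe, Plin5 and Gpam passed, and without the arrays that stood apart, Lipe, Plin2 and Gpam did. In the comparison as made, a call in 1 strain and none in another is not shown to be a difference between strains.

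Most of the 10 genes differed between strains on the control diet, as did most genes on the array. Of the 10, 8 passed an F test over the 7 control groups, against 60.7% of all genes, with Plin2 (F = 11.1, adjusted p = 2.18e-08) and Plin5 (F = 7.43, adjusted p = 7.56e-06) having the largest F. Mgll (adjusted p = 0.0994) and Dgat1 (adjusted p = 0.124) did not pass, but both did with array weights (0.00104 for Mgll and 0.0170 for Dgat1), and Dgat1 did after another round of quantile normalization (0.0490). With all 112 arrays, Abhd5 (0.300) and Dgat2 (0.550) did not pass. Plin2 was highest in BALB/cJ (9.55 ± 0.344) and lowest in CBA/J (8.58 ± 0.107), and Plin5 highest in B6C3F1/J (8.21 ± 0.171) and lowest in BALB/cJ (7.41 ± 0.309; SD, n = 8). Pnpla2 was highest in 129S1/SvImJ (10.59 ± 0.144), 0.504 above the next strain, DBA/2J (10.09 ± 0.232), and this was the only gap between neighbouring strains larger than their SDs for the 10 genes other than that of Plin2 between C3H/HeJ (8.81) and CBA/J (8.58). Adipoq also passed the F test (F = 5.67, adjusted p = 0.000154), with means of 7.59 in C57BL/6J and 4.65 in the next strain, DBA/2J. The atrial mean of control hearts was 10.25 in C57BL/6J and 6.50 to 8.16 in the other strains. The part of attached fat and atrial tissue in the order of the strains was not tested.

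Within groups, slopes on Adipoq were common over all genes on the array, and the triglyceride genes had slopes of both signs. Per unit of log2 Adipoq, Lipe was higher by 0.20 ± 0.0222 (adjusted p = 2.72e-13), Dgat1 by 0.13 ± 0.0157 (4.56e-12) and Plin2 by 0.07 ± 0.0183 (0.00114), 3 positive slopes against 17.7% of all genes. Gpam (-0.15 ± 0.0201, adjusted p = 2.43e-10), Plin5 (-0.12 ± 0.0152, 1.07e-10) and Abhd5 (-0.04 ± 0.0105, 0.000282) had negative slopes, 3 against 23.1% of all genes. Pnpla2, Mgll, Plin4 and Dgat2 had none past the threshold.

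**Figure D5:**
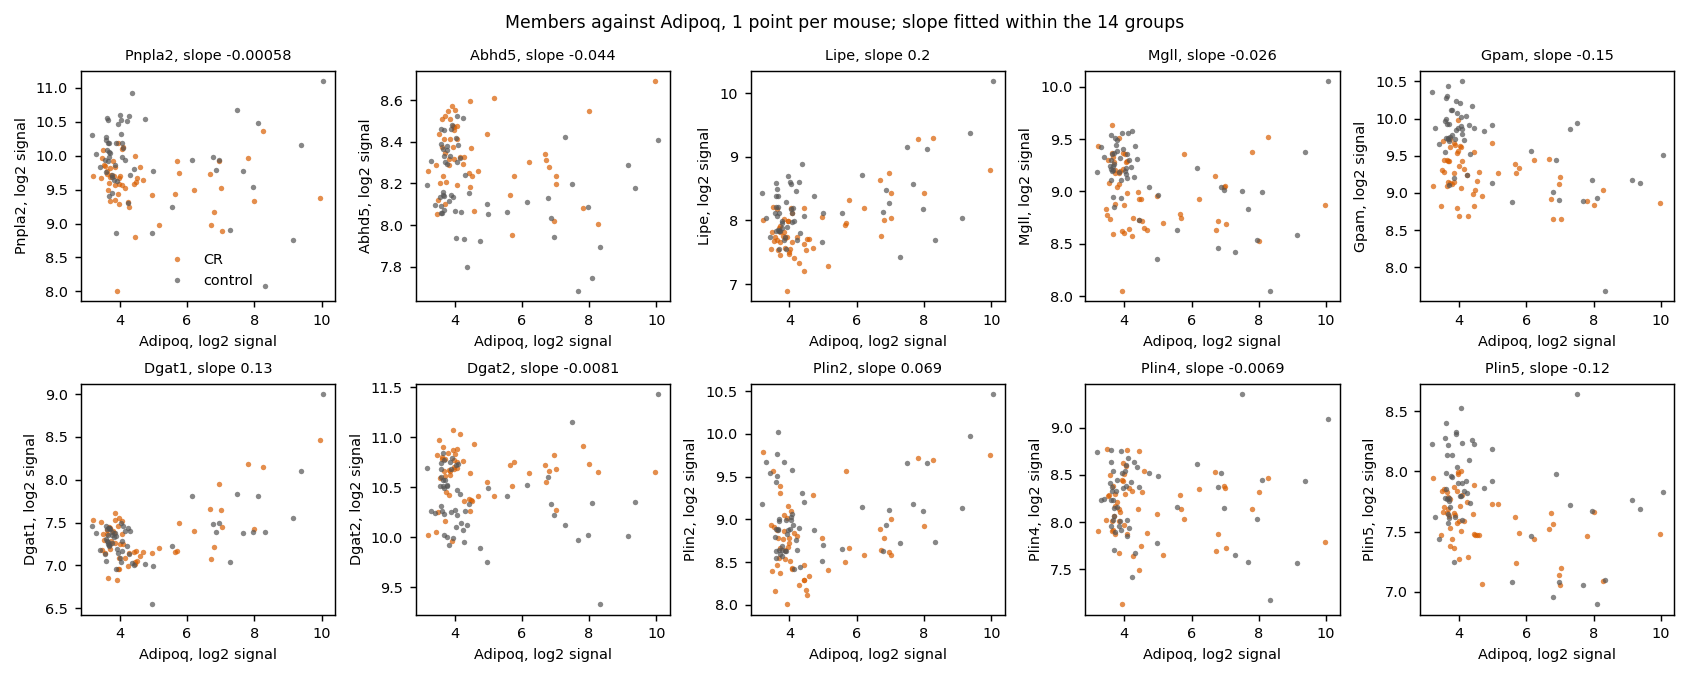
Log2 signal of each triglyceride gene against that of Adipoq in every heart used, with the slope within groups in each title. Lipe runs upward and Gpam downward.

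Most adipocyte and atrial markers followed Adipoq. Beside Adipoq itself, 5 of 5 white adipocyte, 4 of 5 brown adipocyte and 5 of 5 atrial markers had positive slopes past the threshold, and 3 of 4 ventricular markers had negative ones, while the brown marker Zic1 (-0.02, adjusted p = 0.259) and the ventricular marker Hey2 (-0.01, adjusted p = 0.762) did not pass. The slopes on Adipoq were 0.87 for Cidec and 0.79 for Plin1, fat droplet genes, and 1.60 for Myl7 and 1.26 for Myl4, atrial myosin light chains, while the ventricular genes Irx4 and Myl3 had slopes of -0.25 and -0.22. With the atrial mean added, the slope of Abhd5 was 0.03 (adjusted p = 0.366) and that of Plin5 was -0.04 (adjusted p = 0.406), while Gpam, at -0.11, kept its direction (adjusted p = 0.0397). In the same fit the positive slopes were 0.22 for Dgat1 (adjusted p = 4.27e-09), 0.22 for Lipe (0.000119) and 0.12 for Plin2 (0.00843). Without the 2 hearts farthest in Adipoq, the slope of Plin2 did not pass (0.04, adjusted p = 0.0582) and that of Mgll did (-0.05, adjusted p = 0.00887, against -0.03 with them). The slope of Plin2 did not pass with array weights (0.05, adjusted p = 0.101) or with all 112 arrays (0.04, adjusted p = 0.339) either.

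Other genes of the same pathways were given by list, each to be read against the 12.0% of all genes called across strains (4.34% lower and 7.69% higher). Of 12 measured glycerolipid synthesis genes, 1 was lower, Agpat3, an acyltransferase of the step after Gpam (-0.32 ± 0.0316, adjusted p = 7.65e-14, lower in 7 of 7 strains), and 1 was higher, Agpat5 (0.13). Gpat3 (0.05, adjusted p = 0.495) and Gpat4 (-0.04, adjusted p = 0.636), acyltransferases of the same step as Gpam, did not pass. Of 19 droplet and lipolysis partners, Fitm1, which takes part in droplet formation (0.28 ± 0.0556, adjusted p = 0.000136), Cideb (0.18) and Hilpda (0.13) were higher, and the droplet protein Hsd17b11 (-0.22 ± 0.0359, adjusted p = 1.22e-06) and Fitm2 (-0.16) lower. G0s2, the inhibitor of Pnpla2, differed by 0.04 (adjusted p = 0.723).

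Of 10 measured lipolysis signalling genes, Ppargc1a, a co-activator of mitochondrial genes (0.34 ± 0.0558, adjusted p = 2.03e-06), and Ppara (0.29 ± 0.0656, adjusted p = 0.000953) were higher and none was lower. Of 6 plasma triglyceride uptake genes, the receptor Vldlr was lower (-0.38 ± 0.0610, adjusted p = 1.15e-06), Lmf1 was higher (0.13), and Lpl, the lipase that frees fatty acids from plasma triglyceride, differed by -0.11 (adjusted p = 0.0761). The median difference was 0.02 for glycerolipid synthesis, 0.03 for droplet and lipolysis partners, -0.02 for lipolysis signalling and -0.08 for plasma triglyceride uptake, beside -0.0026 over all genes. Agpat3 differed by -0.54 in 129S1/SvImJ and -0.62 in B6C3F1/J, Hsd17b11 by -0.58 and -0.49, and Vldlr by -0.66 and -0.80, all past the threshold. Of the genes called higher across strains, Ppara (0.67), Fitm1 (0.45), Ppargc1a (0.36) and Lmf1 (0.24) also passed in 129S1/SvImJ. Agpat5, Cideb and Hilpda did not pass there. Some genes not called across strains passed in 129S1/SvImJ too, among them Gpd1 (0.57) and Angptl4 (-1.44). The difference of Angptl4 in CBA/J was 0.93 (adjusted p = 0.320). Over the 14 group means, the genes most like Gpam were Slc40a1 (Pearson r = 0.924), Wipi2 (0.923), Agpat3 (0.918) and Airn (0.896), given as a description with no test.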

How the data were processed

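Heart RNA of each mouse was hybridised to 1 Affymetrix Mouse Gene 1.0 ST array. The authors summarised probes to gene-level log2 signals with RMA in Affymetrix Expression Console and deposited those log2 values (no version is named in the labels or methods read). Of 35556 probe sets, 21789 carried 1 gene symbol, 1621 several and 12146 were not named here and a gene was read from its brightest single-symbol probe set, which gave 19938 genes. RMA compresses differences of dim genes, and precision is limited by how many arrays each group has. Groups came from the labels, which name separate mice.

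Tests used limma 3.58.1 in R 4.3.3 on the log2 signals, with 1 mean per strain and diet and Benjamini-Hochberg adjustment over all genes (threshold 0.05). The across-strain difference is the mean of the 7 CR minus control differences. Within-strain fits used the arrays of that strain, and slopes on Adipoq were fitted within groups. The script was tested on simulated data. Alternatives covered normalization, dim genes, probe sets, arrays, variance model, marker covariates, replicate number, strains and Student's t-test on log2 signals. Leaving out an array that stood apart within its strain was chosen after seeing the data. The genes named are the 10 members, Adipoq, up to 4 genes per pathway list past the threshold by smallest p, and the 4 most like the member with the smallest p. Marker genes, Hilpda, G0s2, Lpl, Gpat3, Gpat4, Angptl4 and Gpd1 were named after their values were seen. Members and lists were chosen with earlier results of these data known.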

Additional observations from a re-analysis of the deposited data

Results flagged for a closer look

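In 18 of 154 combinations of gene and group (11.7%) 1 heart lay apart from the other hearts of its group by Dixon's test, where chance gives about 1 in 20. They came from 9 arrays. Values are log2 signals.

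In CBA/J, control replicate 1 was lowest for Pnpla2 (8.07, others 9.30 to 10.04), Mgll (8.05, others 9.30 to 9.58), Abhd5 (7.90, others 8.24 to 8.51), Plin5 (7.10, others 7.62 to 7.84) and Gpam (7.68, others 9.24 to 9.75), and highest for Adipoq (8.32, others 3.59 to 4.31). In B6C3F1/J, control replicate 7 was lowest for Pnpla2 (8.86, others 9.78 to 10.30), Lipe (7.54, others 8.11 to 8.48) and Plin4 (7.92, others 8.41 to 8.76) and highest for Abhd5 (8.46, others 8.03 to 8.19), and CR replicate 2 was lowest for Mgll (8.05, others 8.63 to 8.93).

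In C57BL/6J, CR replicate 4 was highest for Plin2 (9.76, others 8.78 to 9.01) and Dgat1 (8.46, others 6.85 to 7.42). Lipe was highest in BALB/cJ control replicate 7 (9.12, others 7.55 to 8.27) and in C3H/HeJ control replicate 4 (8.72, others 7.88 to 8.19). Mgll was lowest in C3H/HeJ control replicate 6 (8.63, others 9.17 to 9.56), Abhd5 was lowest in DBA/2J control replicate 5 (7.68, others 8.13 to 8.53), and Pnpla2 was highest in 129S1/SvImJ control replicate 1 (10.93, others 10.47 to 10.60).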

How the results depend on the processing

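Of 305 across-strain values recomputed for single genes, 295 kept their side of the threshold and 10 lost it, and no called value turned sign. With all 112 arrays, 547 genes were higher in CR hearts (1534 without the excluded array) and 519 lower (865), 0 triglyceride genes were higher (2; Abhd5 adjusted p = 0.339, Dgat2 0.270, and Mgll, lower, 0.0760), and 30 genes had an interaction (142). With array weights these were 2437 higher, 2044 lower and 5208 with an interaction, 9 of them triglyceride genes (0). Without 129S1/SvImJ, 866 genes were higher, 373 lower and 38 had an interaction, and 3 triglyceride genes were lower (6). Without B6C3F1/J, 500 genes were lower, 66 had an interaction and 3 triglyceride genes were lower. Without C3H/HeJ, Mgll had an adjusted p of 0.0501. Without C57BL/6J, 4 triglyceride genes had an interaction. Without the arrays that stand apart, 1332 genes were lower and 1869 had an interaction, 3 of them triglyceride genes.

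The interaction was called for 3 triglyceride genes (Lipe, Plin5 and Gpam) with Adipoq, the white adipocyte mean, the atrial mean or both means as covariates, and both means gave 225 genes. In 129S1/SvImJ, 1 triglyceride gene was higher (2) with the atrial mean or both means, and 0 with all 14 groups in one fit. In B6C3F1/J, 3 were lower (5) after another round of quantile normalization, with the atrial mean, and by Student's t-test on log2 signals after adjustment. With the atrial mean added, 3685 genes had a slope on Adipoq (8134), 1 triglyceride gene had a negative slope (3), and the slope of Abhd5 on Adipoq was 0.026 against -0.04. The cause of these changes was not tested.

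The labels do not say whether hearts with the same replicate number shared anything else, such as a processing day. Of 55 same-numbered pairs of a CR and a control heart, 28 correlated above 0.1 (median 0.11, -0.44 to 0.67). In 15 of the 55 the CR heart correlated best with the control heart of its own number, where chance gives about 1 in 8. With the replicate number as a block, 214 genes and 1 triglyceride gene (Lipe) had an interaction, 465 genes were called in B6C3F1/J (181), and 1 triglyceride gene was higher in 129S1/SvImJ. There Abhd5 (adjusted p = 0.0630) and Plin5 (0.0754) no longer passed, and in B6C3F1/J Lipe (0.0558) and Mgll (0.0542) no longer passed while Pnpla2 (0.0456) and Plin4 (0.0425) did. The block changed no other call of a triglyceride gene.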
